A study of Mus musculus with 12 samples.

Results

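A set of 7 genes named as targets of the transcription factor p53 was followed across all arrays of the series: Cdkn1a, Ccng1, Mdm2, Bbc3, Perp, Trp53inp1 and Zmat3. The rule takes them by gene symbol, and they gave 13 probe sets of the 45101 on the array and 7 of the 18193 genes that a probe set with exactly 1 symbol represented. All 7 passed into every test, since no filter on low signal was applied, and each lay in the upper 50% of genes by mean signal, from the percentile 65.1 for Perp to 96.7 for Ccng1.

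The samples were embryoid bodies, aggregates in which mouse embryonic stem cells begin to differentiate, grown from strain 129 cells without LIF in dishes that cells do not attach to. At day 2.5 they received either activin at 50 ng/ml, a ligand of the nodal and activin pathway, or SB431542, an inhibitor of its type I receptors that the labels give at 10 mM, for 2 h. The 3 genotypes were wild type (WT), cells without functional Smad4 (Smad4-null) and cells with a knock-down of Trim33 (Trim33-KD). Activin (ac) and SB431542 (SB) in each genotype made 6 groups of 2 arrays, 12 in all, named WT-ac, WT-SB, Smad4-null-ac, Smad4-null-SB, Trim33-KD-ac and Trim33-KD-SB. There was no untreated group, so a response to activin is the difference between a stimulated and a receptor-blocked group. The labels do not say whether the 2 arrays of a group came from separate cultures, so the p-values here speak of the scatter among these arrays, which could be technical. They also name no clone or allele, so an effect of a line and an effect of its genotype cannot be told apart.

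The p53 protein is held at a low level by the ubiquitin ligase Mdm2 and accumulates when DNA damage or other stress interrupts that control. It then binds paired decamer elements in DNA and raises genes that stop the cell cycle, repair DNA or start apoptosis, among them Mdm2 itself, which closes a negative feedback loop. In embryonic stem cells p53 is also known for its part in leaving the pluripotent state, and Smad proteins can bind beside p53 at some promoters. Cdkn1a encodes p21, an inhibitor of cyclin-dependent kinases, and Ccng1 encodes cyclin G1, which recruits a phosphatase to Mdm2. Bbc3 encodes Puma, a BH3-only activator of apoptosis, Perp a membrane protein of desmosomes that also acts in apoptosis, and Trp53inp1 a nuclear protein that promotes apoptosis and autophagy. Zmat3 encodes a zinc-finger protein that binds RNA.

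The promoters of the members that carry the nearest match to a paired p53 element are shown first, because Cdkn1a had the largest difference between Smad4-null and WT and Ccng1, with as close a match, a smaller one. RefSeq promoter windows (assembly GRCm38.p6, 250 bases before to 50 after a transcript start) were held for 4 members, Cdkn1a, Mdm2, Ccng1 and Bbc3, with 7 windows in all. Each was searched for the p53 decamer consensus, which is its own reverse complement so that both strands are covered, and for a pair of decamers without a spacer, 20 bases long, at its fewest mismatches. The 250 bases before the start are given 5′ to 3′ on the strand of the gene, with the best 20-base match in capitals.
Cdkn1a, chr17:29090729-29090978, plus strand: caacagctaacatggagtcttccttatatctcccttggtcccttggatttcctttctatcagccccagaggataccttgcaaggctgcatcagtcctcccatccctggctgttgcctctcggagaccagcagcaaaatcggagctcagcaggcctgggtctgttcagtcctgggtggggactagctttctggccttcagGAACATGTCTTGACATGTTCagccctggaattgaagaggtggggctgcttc
Ccng1, chr11:40755287-40755536, minus strand: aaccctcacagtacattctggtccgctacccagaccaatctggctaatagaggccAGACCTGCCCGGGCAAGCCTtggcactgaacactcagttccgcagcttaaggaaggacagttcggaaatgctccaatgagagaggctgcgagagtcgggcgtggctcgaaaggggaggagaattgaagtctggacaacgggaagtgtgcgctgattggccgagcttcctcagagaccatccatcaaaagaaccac
Bbc3, chr7:16309333-16309582, plus strand: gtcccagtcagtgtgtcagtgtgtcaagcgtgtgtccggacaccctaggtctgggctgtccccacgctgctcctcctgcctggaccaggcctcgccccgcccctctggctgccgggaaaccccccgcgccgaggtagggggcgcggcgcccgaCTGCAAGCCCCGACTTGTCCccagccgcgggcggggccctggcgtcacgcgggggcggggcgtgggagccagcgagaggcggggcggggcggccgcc
The capitals in the Cdkn1a window, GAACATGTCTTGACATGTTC, begin 51 bases before the start and miss the paired consensus at 1 base. Those in the Ccng1 window, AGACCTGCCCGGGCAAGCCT, begin 195 bases before the start and also miss it at 1 base. A pair with at most 1 mismatch was held by 29 of 32851 windows in the RefSeq table, 0.0883%. The best match of Bbc3, CTGCAAGCCCCGACTTGTCC, begins 97 bases before the start with 3 mismatches, a score that 6.29% of all windows reached. The Mdm2 window (chr10:117710709-117711008, minus strand) had 5 mismatches at best and 1 exact decamer, and a second Cdkn1a window (chr17:29093519-29093818, plus strand) had 5 mismatches and no exact decamer. An exact decamer was found in 3 of the 7 member windows and in 8.36% of all windows. The core letters CATG were in 1 of the 7 and in 61.1% of all. A match is a description of these letters, not evidence of binding, and none says nothing about p53 at that gene.

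Signals are log2 values per probe set as deposited, so a difference of 1 is a doubling. A difference was called where limma, fitted across all 18193 genes with 1 probe set per gene (the brightest), gave a Benjamini-Hochberg adjusted p under 0.05. Array medians ran from 5.85 to 6.30 and the SDs of all probe sets from 3.07 to 3.39, the narrowest being WT-SB replicate 2 (3.07) and the first Smad4-null-ac array (3.13). Within-group correlations ran from 0.947 to 0.967. The treatment raised Smad7, a feedback inhibitor of the pathway, by 3.11 in WT (SE 0.27, adjusted p = 0.0222), while its difference was 0.23 in Smad4-null. Lefty1, an inhibitor of Nodal signalling and another known target of the pathway, rose by 2.81 in WT (SE 0.24, adjusted p = 0.0222). In Smad4-null Lefty1 read 13.79 and 13.58 with activin and 12.40 and 12.46 with SB431542, a difference of 1.26 that did not pass (adjusted p = 0.311), and in Trim33-KD its difference was 1.81 (adjusted p = 0.151). The Lefty1 response of Smad4-null minus that of WT was -1.55 (adjusted p = 0.376). Trim33 signal fell by 1.54 in Trim33-KD (SE 0.13, adjusted p = 0.0101). Smad4 signal in Smad4-null was 0.20 above WT (adjusted p = 0.142), and no source here places its probes relative to the mutated part, so it checks nothing. The mean signal of the 18S ribosomal RNA control probe sets was 5.53 and 5.82 on both WT replicate 1 arrays and 7.56 to 10.16 on the other 10. Without both of these WT arrays, an alternative chosen after seeing the data, Cdkn1a (adjusted p = 0.0187) and Bbc3 (0.0483) were still called in Smad4-null against WT, and Trp53inp1 was not (0.120), with 1748 genes called in place of 3356.

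Smad4-null embryoid bodies had lower signal of Cdkn1a, Bbc3 and Trp53inp1 than WT when both treatments were averaged. Cdkn1a fell to 50.9% of the WT signal, Bbc3 to 72.1% and Trp53inp1 to 75.2%. The remaining 4 members, Mdm2, Ccng1, Perp and Zmat3, also read below WT but did not pass the test, so 3 of 7 were called, all lower. Among all genes 11.3% were called lower and 18.4% in either direction. The median difference of the 7 members was -0.41 and that of all genes -0.03, and 6 of the 7 had an unadjusted p under 0.05 against 30.5% of all genes. In 6 of the 7, every Smad4-null array lay below every WT array, which 15% of all genes also did, and Zmat3 was the exception.

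Among the members that act on the cell cycle, Cdkn1a read 11.62 and 11.51 in WT-ac, 10.79 and 11.44 in WT-SB, 10.34 and 10.27 in Smad4-null-ac, 10.33 and 10.51 in Smad4-null-SB, 11.07 and 11.49 in Trim33-KD-ac, and 10.95 and 10.75 in Trim33-KD-SB. On this probe set, 1424638_at, all 4 Smad4-null arrays lay below the other 8. WT and Trim33-KD overlapped, and WT-SB replicate 1 lay well below its partner. The mean was 11.34 ± 0.38 in WT and 10.37 ± 0.10 in Smad4-null (log2, SD, n = 4 each), a fall by 0.97 (SE 0.16, 95% interval -1.36 to -0.59, limma adjusted p = 0.0064). A second Cdkn1a probe set, 1421679_a_at, fell by 0.88 in the fit over all 45037 non-control probe sets (adjusted p = 0.0197), where the brighter set, 1424638_at, had an adjusted p of 0.0151. It read 10.09 and 10.34 in WT-ac, 9.60 and 9.57 in WT-SB, 8.76 and 8.96 in Smad4-null-ac, and 9.01 and 9.33 in Smad4-null-SB. In Trim33-KD this second set read 9.88 and 10.17 with activin and 9.63 and 9.04 with SB431542, the last among the Smad4-null arrays. Both probe sets placed the Smad4-null arrays below WT, and only 1424638_at placed all of them below Trim33-KD. Over the 12 arrays the signals of both sets had r = 0.899.

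Ccng1 was the brightest member, at 12.64 and 12.58 in WT-ac, 12.63 and 12.65 in WT-SB, 12.38 and 12.37 in Smad4-null-ac, 12.45 and 12.36 in Smad4-null-SB, 12.67 and 12.99 in Trim33-KD-ac, and 12.79 and 12.76 in Trim33-KD-SB. The genotypes did not overlap on this probe set, with Smad4-null lowest and Trim33-KD highest. The Smad4-null difference of -0.24 (SE 0.09) did not pass (adjusted p = 0.111). The other probe sets, 1450017_at and 1420827_a_at, gave -0.44 and -0.15 (adjusted p = 0.107 and 0.662 over all probe sets), and 1 of the 2, 1420827_a_at, had Smad4-null arrays among the WT arrays.

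Mdm2, the feedback inhibitor of p53, had the smallest Smad4-null difference of the 7. It read 11.38 and 11.45 in WT-ac, 11.36 and 11.38 in WT-SB, 11.22 and 11.31 in Smad4-null-ac, 11.32 and 11.27 in Smad4-null-SB, 11.51 and 11.45 in Trim33-KD-ac, and 11.64 and 11.39 in Trim33-KD-SB. The Smad4-null arrays lay just below WT, by 0.11 on average (95% interval of the difference -0.30 to 0.08, adjusted p = 0.419). Its second probe set, 1427718_a_at, gave -0.33 (SE 0.18, adjusted p = 0.343 over all probe sets) with overlapping arrays. The third, 1457929_at, was dim, between 2.51 and 4.88 on all arrays, and its correlations with the other 2 were -0.29 and -0.25.

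**Figure D1:**
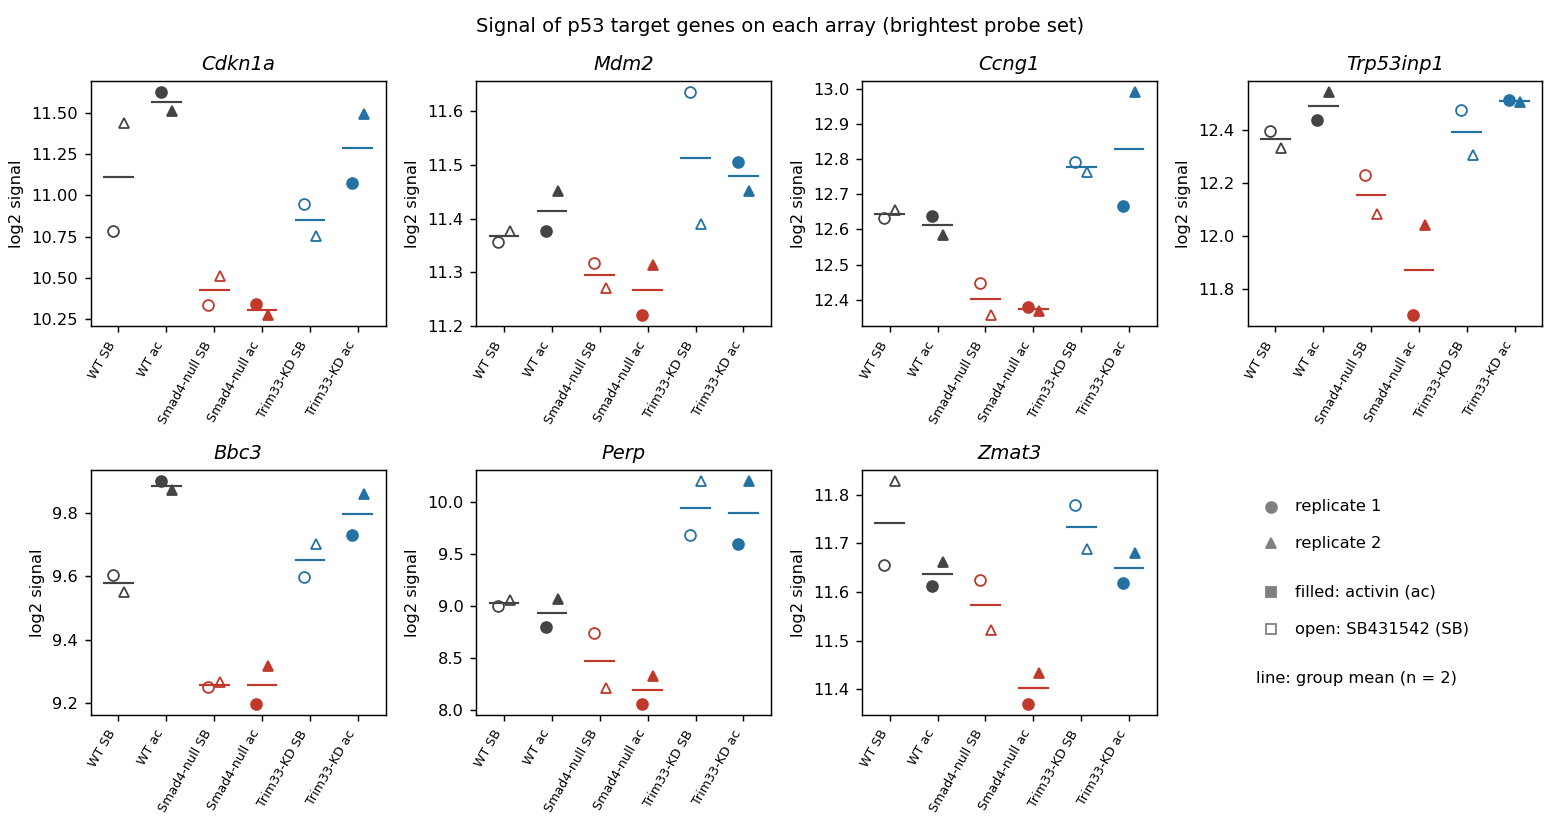
Log2 signal (y axis) of the brightest probe set of each p53 target gene in the 6 groups (x axis), with 1 point per array (circle replicate 1, triangle replicate 2, filled activin, open SB431542) and a line at each group mean (n = 2). The 4 Smad4-null arrays of Cdkn1a sit between 10.27 and 10.51, below all WT arrays, which sit between 10.79 and 11.62. Each panel has its own scale.

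Among the members tied to apoptosis, Bbc3 read 9.90 and 9.87 in WT-ac, 9.60 and 9.55 in WT-SB, 9.20 and 9.32 in Smad4-null-ac, 9.25 and 9.27 in Smad4-null-SB, 9.73 and 9.86 in Trim33-KD-ac, and 9.60 and 9.70 in Trim33-KD-SB. All Smad4-null arrays were again lowest, and their spread was small. The means were 9.73 ± 0.18 in WT and 9.26 ± 0.05 in Smad4-null (SD, n = 4 each), a fall by 0.47 (SE 0.07, adjusted p = 0.0046), and its adjusted p over all probe sets was 0.0228.

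Trp53inp1 read 12.44 and 12.54 in WT-ac, 12.40 and 12.33 in WT-SB, 11.70 and 12.04 in Smad4-null-ac, 12.23 and 12.08 in Smad4-null-SB, 12.51 and 12.50 in Trim33-KD-ac, and 12.47 and 12.31 in Trim33-KD-SB. Every Smad4-null array was below the rest, with the lowest value, 11.70, on the Smad4-null-ac array with the narrow spread. It fell by 0.41 (SE 0.10, adjusted p = 0.0266), a call that held in 5 of the 12 fits that left out 1 array. Without WT-ac replicate 1 or 2 its adjusted p was 0.062 or 0.0811, without WT-SB replicate 1 or 2 it was 0.0689 or 0.0519, without Smad4-null-SB replicate 1 or 2 it was 0.0577 or 0.098, and without Smad4-null-ac replicate 1 it was 0.0699. The calls of Cdkn1a and Bbc3 held in all 12 of these fits. Of these 12 fits 4 left out a Trim33-KD array, which leaves both means compared here unchanged, and Trp53inp1 kept its call there. Over all probe sets neither Trp53inp1 set was called, at -0.41 (adjusted p = 0.0734) and, for 1416927_at, -0.86 (adjusted p = 0.087).

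Perp read 8.80 and 9.07 in WT-ac, 9.0 and 9.06 in WT-SB, 8.06 and 8.33 in Smad4-null-ac, 8.74 and 8.21 in Smad4-null-SB, 9.60 and 10.20 in Trim33-KD-ac, and 9.69 and 10.21 in Trim33-KD-SB. The 3 genotypes formed separate ranges, Smad4-null lowest and Trim33-KD highest, with Smad4-null-SB replicate 1 only just under the lowest WT array. Its Smad4-null difference was -0.65 (SE 0.20, adjusted p = 0.0628). Zmat3, the RNA-binding member, read 11.61 and 11.66 in WT-ac, 11.66 and 11.83 in WT-SB, 11.37 and 11.43 in Smad4-null-ac, 11.63 and 11.52 in Smad4-null-SB, 11.62 and 11.68 in Trim33-KD-ac, and 11.78 and 11.69 in Trim33-KD-SB. The first Smad4-null-SB array reached into the WT range, and the difference of -0.20 (SE 0.08) did not pass (adjusted p = 0.119).

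Split by treatment, the Smad4-null difference of Cdkn1a was -1.26 (SE 0.23, adjusted p = 0.0184) with activin and -0.69 (SE 0.23, adjusted p = 0.118) with SB431542. Bbc3 gave -0.63 (adjusted p = 0.0123) and -0.32 (adjusted p = 0.107), and Trp53inp1 gave -0.62 (adjusted p = 0.037) and -0.21 (adjusted p = 0.421). Thus 3 of 7 members were called lower with activin, where 5.6% of all genes were, and limma called 0 of 7 with SB431542, where 6.12% of all genes were called lower and 2 members had an unadjusted p under 0.05 (24.3% of all genes). All 7 had every Smad4-null array below every WT array within each treatment, which 33.7% of all genes had with SB431542 and 25.5% with activin. With activin 4 members had an unadjusted p under 0.05, against 24.4% of all genes. A call in 1 treatment and none in the other does not show that the treatments differ, and the tests of that difference are given with the responses.

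On the brightest probe sets, Trim33-KD embryoid bodies read close to WT for Mdm2, Trp53inp1, Bbc3 and Zmat3. They read highest of the genotypes for Perp and Ccng1. Limma called 0 of 7 against WT, where 0.649% of all genes were called, and 1 member, Perp, had an unadjusted p under 0.05 (17% of all genes). Perp was 0.94 above WT (SE 0.20, 95% interval 0.47 to 1.41, unadjusted p = 0.0019, adjusted p = 0.0952), with means of 9.92 ± 0.33 and 8.98 ± 0.13 (SD, n = 4 each). All 4 Trim33-KD arrays of Perp and of Ccng1 lay above all WT arrays, which 6.12% of genes did. Perp passed when the fit held only the upper 50% of genes (adjusted p = 0.0099), where 789 of 9097 genes were called. It also passed with a trended and robust prior (adjusted p = 0.0109), where 637 of 18193 genes were called. The main fit called 118 of 18193.

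For the other members the Trim33-KD difference from WT was -0.27 for Cdkn1a (95% interval -0.66 to 0.11), 0.11 for Mdm2 (-0.08 to 0.29), 0.18 for Ccng1 (-0.03 to 0.38), 0.02 for Trp53inp1 (-0.21 to 0.26), -0.01 for Bbc3 (-0.18 to 0.16) and 0.00 for Zmat3 (-0.18 to 0.18). On the brightest probe sets, the intervals of Trp53inp1, Bbc3 and Zmat3 reach no further than 0.26 to either side of 0. That of Cdkn1a reaches down to -0.66. The second Trp53inp1 set, 1416927_at, read lower in Trim33-KD, with a mean of 8.47 against 9.05 in WT and overlapping arrays. Centring each array on its median moved the median of all genes by 0.20 in this comparison and raised the share of higher among called genes from 68.6% to 90.2% (81% after quantile normalization). Under median centring all differences rose by that amount, so Bbc3 was 0.19 and Cdkn1a -0.07. The sign of Bbc3 against WT thus turned with the scaling.

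**Figure D2:**
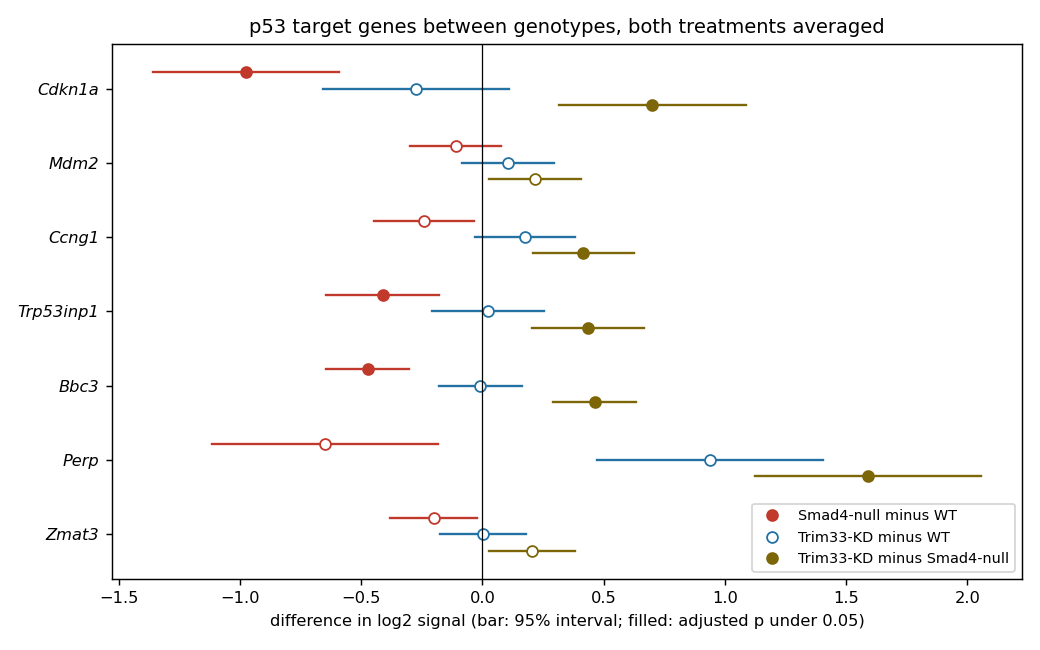
Difference in log2 signal (x axis) of each p53 target gene (y axis) between genotypes, both treatments averaged, with 95% intervals from limma, for Smad4-null minus WT (red), Trim33-KD minus WT (blue) and Trim33-KD minus Smad4-null (ochre); filled points have an adjusted p under 0.05. All 7 red points lie left of 0, from -0.97 for Cdkn1a to -0.11 for Mdm2, and Perp is the blue point farthest from 0.

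Against Smad4-null, 5 of 7 members were higher in Trim33-KD past the threshold, and 11.1% of all genes were (15.7% after median centring, which moved the median of all genes by 0.17 and raised the share of higher among called genes from 60.2% to 79.8%). Perp rose by 1.59 (SE 0.20, adjusted p = 0.002), Cdkn1a by 0.70 (SE 0.16, adjusted p = 0.0243), Bbc3 by 0.46 (SE 0.07, adjusted p = 0.005), Trp53inp1 by 0.44 (SE 0.10, adjusted p = 0.0218) and Ccng1 by 0.42 (SE 0.09, adjusted p = 0.0168). Mdm2 and Zmat3, at 0.22 and 0.20, did not pass (adjusted p = 0.113 each). In 6 of 7, all but Zmat3, every Trim33-KD array was above every Smad4-null array on the brightest probe set, which 15.2% of genes showed. The second Cdkn1a set, 1421679_a_at, overlapped there. All 7 members had an unadjusted p under 0.05 (31.6% of genes). This comparison shares the Smad4-null arrays with the one against WT, so it adds no independent evidence on those arrays. With SB431542 alone Perp was called (1.47, adjusted p = 0.0224), where 5.68% of genes were called higher, and with activin alone Perp, Cdkn1a, Trp53inp1 and Bbc3, where 5.4% were. Perp and Bbc3 kept their call in all 12 fits without 1 array, Ccng1 in 9, Trp53inp1 in 7 and Cdkn1a in 5. Of these 12 fits 4 left out a WT array, which leaves both means compared here unchanged, and each of these calls was kept there. The count of called members was 2 without Trim33-KD-SB replicate 1, Smad4-null-ac replicate 1 or Smad4-null-SB replicate 2, and 3 without Trim33-KD-ac replicate 2.

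Activin against SB431542 called no member in any genotype. In WT the difference was 0.45 for Cdkn1a (SE 0.23, 95% interval -0.09 to 0.997), 0.31 for Bbc3 (SE 0.10, 95% interval 0.06 to 0.55) and 0.13 for Trp53inp1, and between -0.10 and 0.05 for the other 4. Limma called 0 of 7, where 0.033% of all genes were called, and 1 member, Bbc3, had an unadjusted p under 0.05 (4.02% of all genes had one), with an adjusted p of 0.9996. Cdkn1a, Bbc3 and Trp53inp1 had both WT-ac arrays above both WT-SB arrays, which 9.66% of genes had. On the brightest probe set the Cdkn1a value rests on WT-SB replicate 1. It was 0.13 without that array and 0.78 without WT-SB replicate 2. The second set, 1421679_a_at, had closer WT-SB arrays, at 9.60 and 9.57, against 10.09 and 10.34 in WT-ac.

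In Smad4-null, Cdkn1a differed by -0.12, Trp53inp1 by -0.28, Perp by -0.28 and Bbc3 by 0.00 to 2 decimals. All 7 values were negative there, with a median of -0.12 against 0.06 for all genes, and limma called 0 of 7 (0.011% of all genes), with 0 at an unadjusted p under 0.05 (6.81% of all genes). Both Smad4-null-ac arrays lay below both Smad4-null-SB arrays for Trp53inp1 and Zmat3, as for 15.1% of genes. In Trim33-KD the values were 0.43 for Cdkn1a, 0.14 for Bbc3 and 0.12 for Trp53inp1, again with 0 of 7 called by limma (0.011% of all genes) and 0 at an unadjusted p under 0.05 (4.21% of all genes). There Cdkn1a, Bbc3 and Trp53inp1 had both activin arrays above both SB431542 arrays, which 10.8% of genes had, and Zmat3 had both below, which 19.6% had. The second Cdkn1a probe set gave 0.62 in WT, -0.31 in Smad4-null and 0.69 in Trim33-KD (adjusted p = 1, 0.889 and 1 over all probe sets). Median centring moved the median of all genes by 0.12 in WT and by -0.16 in Smad4-null, and Cdkn1a kept its direction in each genotype under it, while Zmat3 in WT turned from -0.10 to 0.01.

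The test of whether a response differed from that of WT passed for no member. For Smad4-null the difference in response was -0.57 for Cdkn1a (SE 0.33), -0.41 for Trp53inp1 (SE 0.20) and -0.31 for Bbc3 (SE 0.15), and limma called 0 of 7, as it did 0 of all 18193 genes, with 0 members at an unadjusted p under 0.05 (7.24% of all genes). The 95% interval of the Cdkn1a difference ran from -1.34 to 0.20. For Trim33-KD the differences ran from -0.16 to 0.08, with 0 of 7 called by limma and 0 at an unadjusted p under 0.05 (2.67% of all genes). The WT arrays enter both tests.

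**Figure D3:**
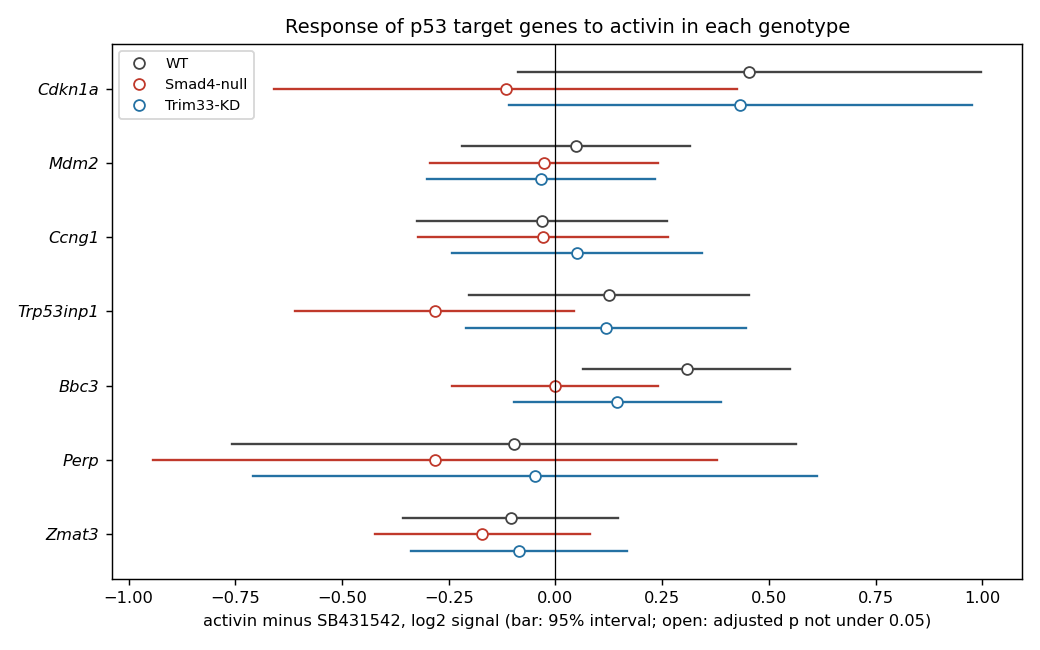
Activin minus SB431542 in log2 signal (x axis) for each p53 target gene (y axis) in WT (dark grey), Smad4-null (red) and Trim33-KD (blue), with 95% intervals from limma. Of the 21 points, 20 have an interval that spans 0, and Bbc3 in WT, at 0.31, does not; no adjusted p is under 0.05.

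Ordered by group mean, the 2 Smad4-null groups were the lowest for all 7 genes. For 6 of the 7, all but Zmat3, both arrays of the next group up lay above both arrays of the higher Smad4-null group. The shares of all genes with this order and this separation were not computed, so both counts are descriptions only. Above them the order varied: WT-ac was highest for Cdkn1a (11.57) and Bbc3 (9.88), Trim33-KD for Mdm2, Ccng1, Trp53inp1 and Perp, and WT-SB for Zmat3. Cdkn1a ran WT-ac 11.57, Trim33-KD-ac 11.28, WT-SB 11.11, Trim33-KD-SB 10.85, Smad4-null-SB 10.42 and Smad4-null-ac 10.31, and the neighbours from Trim33-KD-ac to Trim33-KD-SB overlapped, as did both Smad4-null groups. For Mdm2 and Trp53inp1 no neighbours among the 4 WT and Trim33-KD groups were separate.

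All 13 probe sets had a negative Smad4-null difference, from -0.11 to -0.97, and 3 were called (5.48% of all probe sets were called lower): both Cdkn1a sets and the Bbc3 set. Within a gene the Ccng1 sets had r between 0.741 and 0.955 over the 12 arrays and the Trp53inp1 sets r = 0.557, while the 2 brighter Mdm2 sets had r = 0.328. These arrays share genotype and treatment, and the correlations are descriptions.

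**Figure D4:**
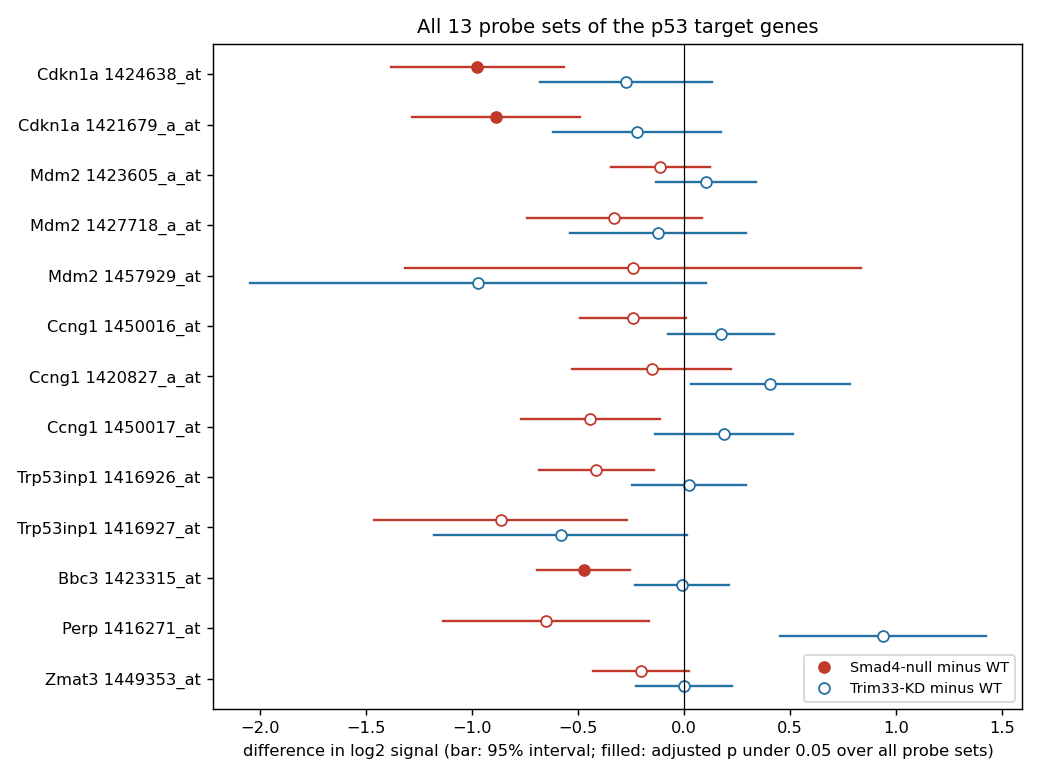
Difference in log2 signal (x axis) for all 13 probe sets of the p53 target genes (y axis), Smad4-null minus WT (red) and Trim33-KD minus WT (blue), with 95% intervals from limma; filled points have an adjusted p under 0.05 over all 45037 probe sets. The red points run from -0.97 to -0.11, and the dim Mdm2 set 1457929_at has the widest intervals.

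Of 16 measured genes of the p53 family and its regulators, 2 were called higher and 0 lower in Smad4-null against WT, with a median of 0.02, where 7.12% of all genes were called higher and 11.3% lower, with a median of -0.03. Cdkn2a, whose product Arf inhibits Mdm2 and whose other product is a CDK inhibitor, rose by 1.59 (SE 0.20, adjusted p = 0.0019). It read 5.12, 5.33, 5.40 and 5.22 on the WT arrays and 6.94, 6.59, 6.78 and 7.10 on the Smad4-null arrays. The WT values lie below every array median, so the size of this difference is uncertain: with all values floored at 6 on the log2 scale, also chosen after seeing the data, it was 0.85 (adjusted p = 0.0029). The checkpoint kinase gene Chek1 rose by 0.41 (adjusted p = 0.0209). Mdm4, a partner of Mdm2, differed by -0.10 (adjusted p = 0.582) and Ppm1d, a phosphatase that turns p53 signalling off, by -0.01 (adjusted p = 0.976). In Trim33-KD against WT limma called 0 of the 16 (0.649% of all genes) and 3 had an unadjusted p under 0.05 (17% of all genes), with Mdm4 at 0.07 and Ppm1d at -0.13. In the responses limma called 0 of 16 in each genotype, and 0 had an unadjusted p under 0.05. Of all genes 4.02% had one in WT, 6.81% in Smad4-null and 4.21% in Trim33-KD. Between Trim33-KD and Smad4-null 1 of the 16 was called, where 7.32% of all genes were called lower and 11.1% higher. This was Cdkn2a, which fell by 1.06 (adjusted p = 0.0095), and with the floor the difference was -0.84. Trp53 and Rpl5 are not analysed here.

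Among 25 further p53 targets, 9 were called lower and 4 higher in Smad4-null than in WT, with a median of -0.32, beside 11.3% of all genes lower, 7.12% higher and a median of -0.03. The death receptor gene Tnfrsf10b fell by 1.26 (SE 0.14, adjusted p = 0.0011), the kinase gene Plk2 by 1.18 (SE 0.14, adjusted p = 0.0016), the antiproliferative gene Btg2 by 1.04 (SE 0.12, adjusted p = 0.0016) and the stress regulator Sesn2 by 0.90 (SE 0.12, adjusted p = 0.0023). In each of these 4 every Smad4-null array was below every WT array, as for 15% of all genes. They were named for the size of their differences, so this separation adds no further evidence. Tnfrsf10b read 5.30 to 5.79 on the Smad4-null arrays, below every array median, and with the floor its difference was -0.88 (adjusted p = 0.0019). Btg2 read 10.05 and 9.85 in WT-ac, 9.67 and 9.35 in WT-SB, 8.67 and 8.75 in Smad4-null-ac, and 8.77 and 8.57 in Smad4-null-SB. The other 5 that fell were Phlda3, Polk, Rprm, Ercc5 and Ei24, with differences between -0.65 and -0.34. The 4 that rose were Plk3 (0.73), Rrm2b, a ribonucleotide reductase subunit (0.57), Gadd45a, a growth arrest and DNA repair factor (0.55), and Pml (0.54), so the targets did not move in a single direction. The names beyond the 4 with the largest differences were chosen after their values were seen. Bax, Gdf15 and Fdxr are not analysed here.

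In Trim33-KD against WT limma called 0 of the 25 (0.649% of all genes), 8 had an unadjusted p under 0.05 (17% of all genes) and the median was 0.06, with Plk3 at 0.73 (adjusted p = 0.0665) and Sesn2 at 0.50 (adjusted p = 0.117). Against Smad4-null, 10 of the 25 were higher and 2 lower in Trim33-KD, the 2 being Gadd45a (-0.70) and Rrm2b (-0.68), where 11.1% of all genes were higher and 7.32% lower (15.7% and 3.96% after median centring). Limma called 0 of the 25 in the response of any genotype. In WT, Smad4-null and Trim33-KD, 4, 1 and 1 had an unadjusted p under 0.05, beside 4.02%, 6.81% and 4.21% of all genes. RefSeq windows were held for 23 genes of this list as written, of which 1, Gtse1, had a paired match with at most 1 mismatch and 7 had at most 3.

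**Figure D5:**
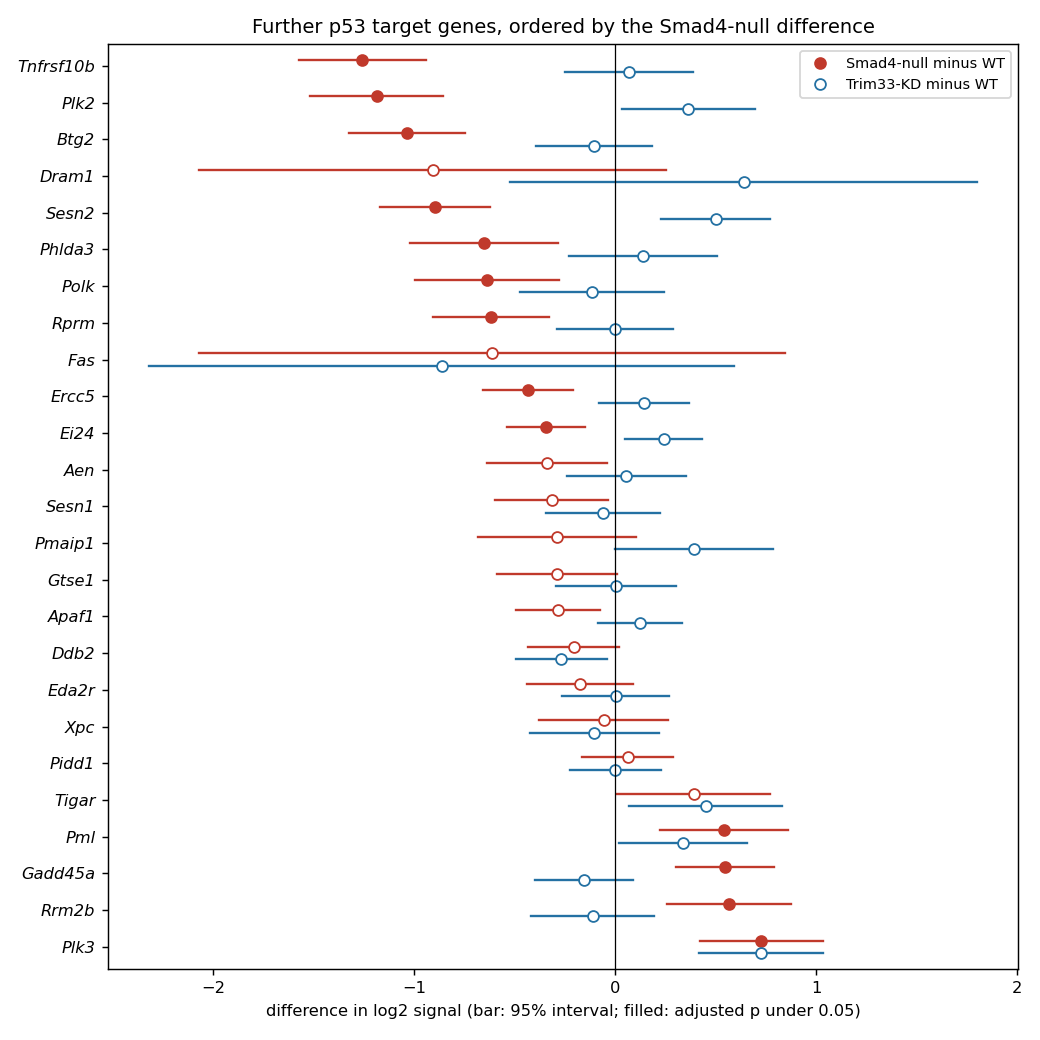
Difference in log2 signal (x axis) of 25 further p53 target genes (y axis, ordered by the Smad4-null difference), Smad4-null minus WT (red) and Trim33-KD minus WT (blue), with 95% intervals from limma; filled points have an adjusted p under 0.05. Red points run from -1.26 for Tnfrsf10b to 0.73 for Plk3, with 9 filled on the left and 4 on the right, and no blue point is filled.

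Genes in the pathways that the members feed were measured as well, and their counts stand beside the 7.12% of all genes called higher and the 11.3% called lower in Smad4-null. Of 6 other CDK inhibitor genes 1 was called higher in Smad4-null against WT, Cdkn2a, and 0 lower. Of 13 genes of the Bcl2 family, which decides on apoptosis at mitochondria, 0 were higher and 3 lower: Bik, a BH3-only activator, fell by 1.10, the survival gene Bcl2 by 0.99 and the survival gene Bcl2l2 by 0.76 (adjusted p = 0.0014, 0.00066 and 0.0022). Bcl2 read 5.68 to 5.82 on the Smad4-null arrays, below every array median, and its difference was -0.75 with the floor. Of 19 cell cycle genes known to be repressed through p21 and the DREAM complex, 1 was higher, the topoisomerase gene Top2a by 0.25 (adjusted p = 0.0498), and 0 lower, with a median of 0.07. Their summed linear signal was 114419 to 119055 on the Smad4-null arrays and 106104 to 113494 on the WT arrays. In Trim33-KD against WT limma called 0 genes in each of these 3 lists, and 3, 3 and 1 had an unadjusted p under 0.05 (17% of all genes). Ccnb1 and Bcl2a1a are not analysed here.

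Markers of other cell types moved with the Smad4-null genotype too. Their counts, here and in the next paragraph, stand beside 7.12% of all genes called higher and 11.3% called lower in Smad4-null. In bulk samples, fewer cells of a type and less RNA per cell cannot be told apart. Of 5 measured primitive streak and mesoderm genes 4 fell in Smad4-null against WT, with log2 differences of -4.26 for Mixl1, -3.65 for Eomes, -3.37 for Fgf8 and -1.47 for Mesp1. Their summed linear signal was 4879 to 11052 in WT, 2570 to 7373 in Trim33-KD and 545 to 910 in Smad4-null. Of 9 trophectoderm markers 2 were lower, Eomes (also on the streak list) and Cdx2 (-2.95). The sums were 7226 to 9425 in WT, 7298 to 13072 in Trim33-KD and 4043 to 4298 in Smad4-null. Eomes was the brightest of the 9 in WT, at a mean of 11.77 against 8.11 in Smad4-null, so these sums follow it in part. The means of Tfap2c, Gata3 and Hand1 were higher in Smad4-null than in WT, without a call. Of 9 primitive and visceral endoderm markers 3 were lower (Gata6, Sox7 and Sox17), with sums of 1062 to 1243 in WT, 984 to 1139 in Trim33-KD and 803 to 950 in Smad4-null. Several of these signals were dim in Smad4-null, where Cdx2 read 3.96 to 5.90, Sox7 4.59 to 5.17, Sox17 4.39 to 6.07 and Mixl1 5.49 to 6.31. With the floor the differences were -2.12 for Cdx2, -0.33 for Sox7, -0.58 for Sox17, -1.37 for Gata6 and -4.09 for Mixl1, each still called (adjusted p from 0.00038 to 0.0332). None of these markers is listed at 0, and the lowest value of any was that of Ttr, 0.095 on a Smad4-null array. Their part in the differences of the p53 targets was not tested.

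Epiblast genes, known to be active in embryoid bodies of this age, had summed signals of 28915 to 31025 in WT, 29346 to 30652 in Trim33-KD and 28838 to 34632 in Smad4-null. Of the 5 genes 1 was higher in Smad4-null, Utf1 by 0.82, 2 were lower, Fgf5 (-1.43) and Pou5f1 (-0.31), and Otx2 fell by 0.95 in Trim33-KD (adjusted p = 0.0324). Of 8 fibroblast markers, for feeder cells, 1 was higher (Dcn, which read 3.26 to 5.32 in WT and 7.58 to 8.11 in Smad4-null) and 2 lower (Thy1 and Col1a2) in Smad4-null, with sums of 521 to 655 in WT and 519 to 650 in Smad4-null. Perp is also a gene of stratified epithelium. Of 6 surface epithelium markers 1 was higher in Smad4-null (Cdh1 by 0.55), beside 7.12% of all genes. In Trim33-KD limma called 0 of the 6 (0.649% of all genes), with 0 at an unadjusted p under 0.05 (17% of all genes). Their sums were 7000 to 8358 in WT, 8629 to 10265 in Trim33-KD and 9117 to 11563 in Smad4-null. Most of each sum is Cdh1, at a mean of 12.63 in WT, 12.83 in Trim33-KD and 13.19 in Smad4-null. Sfn is an epithelial 14-3-3 protein gene and also a p53 target, and Dsp encodes a desmosome protein as Perp does. Both had the genotype order of Perp by mean and were named for it after their values were seen. Cdh1, Krt5, Krt14 and Trp63, the rest of the list, did not have that order. On the trophectoderm list Krt8, Krt18, Krt7 and Cdx2 also had it by mean, and Eomes, Elf5, Tfap2c, Gata3 and Hand1 did not. The ranges of Krt8 were separate, as those of Perp were. They were 10.04 to 10.29 in Smad4-null, 10.57 to 11.02 in WT and 11.18 to 12.66 in Trim33-KD. These genes too were named after their values were seen. Sfn had means of 8.24 in WT, 9.11 in Trim33-KD and 7.26 in Smad4-null, and Dsp of 10.19, 10.53 and 9.72. In both, every Smad4-null array was below every WT array, as for 15% of all genes, while Trim33-KD arrays overlapped WT, unlike those of Perp. The Smad4-null differences from WT did not pass (Sfn -0.99, adjusted p = 0.184, and Dsp -0.47, adjusted p = 0.209). The part of these lists was not tested. The 3′ minus 5′ signal of Actb, a measure of RNA integrity, ran from 0.32 to 0.67 in WT, 0.33 to 0.51 in Smad4-null and 0.31 to 0.74 in Trim33-KD, so the genotypes overlapped. The 18S control signal was 5.53 to 8.16 in WT, 8.10 to 9.22 in Smad4-null and 7.56 to 10.16 in Trim33-KD, and its part in the differences was not tested beyond leaving out both low WT arrays.

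Among 9090 genes in the upper 50% by mean signal, those most like each member over the 12 arrays were, with Pearson's r, Foxred2 (0.923), Fam126a (0.916) and Sh3pxd2a (0.914) for Cdkn1a and Samd4 (0.972), Pofut1 (0.968) and Slc27a4 (0.966) for Ccng1. For Mdm2 they were Mbd1 (0.949), Slc38a1 (0.947) and 5530601H04Rik (0.933), and for Zmat3 Itgav (0.938), Hmgxb3 (0.935) and Mknk2 (0.919). For Bbc3 they were Mkx (0.980), Btg2 (0.970), itself a p53 target, and Cebpd (0.965), and for Trp53inp1 Phldb2 (0.979), Cpxm1 (0.965) and Cyria (0.961). For Perp they were Tarbp2 (0.983), Nudt9 (0.982) and Capg (0.982). Between members r ran from 0.496 for Cdkn1a and Perp to 0.927 for Ccng1 and Perp, and was 0.885 for Cdkn1a and Bbc3. The points are 12 arrays in 3 genotypes, so a shared genotype difference alone gives a high r.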

How the data were processed

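The 12 arrays were Affymetrix mouse expression arrays of total RNA. The authors deposited a log2 signal for each probe set, and how probes were summarized is not stated in the labels. The antilogs have the same trimmed mean, 500, on each array (2% trimmed at each end). The submitters' processing notes name limma, with no version. Of the 45101 probe sets 64 are controls, 34945 carry 1 gene symbol, 932 several and 9160 none, and the brightest probe set with 1 symbol stood for each of 18193 genes. No further normalization was applied, so array-wide shifts remain in the values. Limma 3.58.1 in R 4.3.3 was fitted with 1 mean per group to all 12 arrays (6 residual degrees of freedom), with p-values adjusted by Benjamini-Hochberg over all genes, or over 45037 probe sets, and a threshold of 0.05. The number of arrays, 2 per group, limits the precision. The script was tested on simulated data. Figures were drawn with matplotlib 3.10.9 in Python 3.11.15.

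The members and gene lists were chosen with earlier results of these data known. The text names all members, the label and treatment checks, Mdm4 and Ppm1d, of each other list up to 4 called genes with the largest difference in a mutant against WT, and the 3 genes most correlated with each member. Alternatives were quantile normalization, median centring, a filter on dim genes, a floor of 64, other probe set rules, another prior, array weights, fewer groups in the fit, the replicate block, each treatment alone and leaving out arrays. Leaving out both WT arrays of low 18S signal, and the floor for genes of the other lists, were added after seeing the data. Sfn, Dsp, the trophectoderm markers beyond Eomes and Cdx2, and the further p53 targets beyond the 4 with the largest differences were also named after seeing the data. Replicate numbers do not pair the arrays across all groups: of 15 pairs of groups 6 had deviations correlated over 0.1. The highest correlations were between both treatments of WT (0.39) and of Trim33-KD (0.34), while those of Smad4-null had -0.19. A pairing within WT or Trim33-KD was not modelled.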

Additional observations from a re-analysis of the deposited data

How the results depend on the processing

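In Smad4-null against WT, 3 members were called, and 5 were with only the upper 50% of genes or with a trended and robust prior, which added Ccng1 and Perp, 0 with only the SB431542 groups, and 2 to 3 when 1 array was left out. In Trim33-KD against WT the count of 0 became 1, Perp, with the upper 50% of genes and 1 with the trended and robust prior, and was 0 whichever array was left out. In Trim33-KD against Smad4-null the 5 calls became 7 with median centring, 7 with values floored at 64, 6 with the trended and robust prior, 3 without both arrays of narrow spread, 1 with only the SB431542 groups and 2 to 5 when 1 array was left out. Called genes in all were, for Smad4-null against WT, 3383 of 9097 in the upper 50% and 4162 of 18193 with the trended prior (main 3356). For Trim33-KD against WT they were 789 and 637 (main 118). For Trim33-KD against Smad4-null they were 3578 with median centring, 3272 with the floor and 4129 with the trended prior (main 3350). With only the SB431542 groups 1656 genes were called for Smad4-null against WT and 1534 for Trim33-KD against Smad4-null. The cause was not tested. With the replicate block the counts of members stayed at 3, 0 and 5, and those of all genes were 3100, 79 and 3059 in place of 3356, 118 and 3350. Trp53inp1 in Smad4-null also lost its call after median centring (adjusted p = 0.107), without both narrow arrays (0.0998) and with only the compared groups in the fit (0.0633). Over all alternatives its adjusted p in limma ran from 0.003 to 0.421, that of Cdkn1a from 0.00018 to 0.118 and that of Bbc3 from 0.00046 to 0.107. No called value of a member changed sign in any of 1330 alternative values, of which 1205 kept their side of the threshold and their direction, 39 lost and 12 gained a call, and 74 differed in sign with neither value called. With 2 arrays per group, a small change such as that of Mdm2 is within the error of these arrays. Member responses were 0 called under each alternative run.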
